A study of Coturnix japonica with 4 samples.

Results

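The melanosome matrix and membrane genes described here are PMEL, MLANA, GPNMB, GPR143 and TSPAN10, to which CDK2 was added because it is the direct neighbour of PMEL in the quail genome annotation. They make up 6 of the 12383 genes analysed, and all 6 were found in the authors' table by their gene ID. The measurements come from embryonic skin of Japanese quail (Coturnix japonica), untreated and without any genetic change named in the labels. The groups are skin cut from the black stripes and skin cut from the yellow stripes at embryonic day 7. Each stripe gave 2 libraries, and tissue of 4 embryos was pooled for each. The authors deposited 1 RPKM value per stripe (reads per kilobase of transcript, scaled by the mapped reads of the library), so no replicate spread, SD or interval can be given for any value. The read depth behind the values is unknown.

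Melanosomes are lysosome-related organelles in which pigment cells make and store melanin. In the early organelle, fragments of the PMEL protein assemble into amyloid fibrils that form striations, and melanin made by TYR, TYRP1 and DCT is then laid down on them. MLANA, GPR143 and TSPAN10 are membrane proteins of this organelle or of pigment cells, and GPNMB is a glycoprotein related to PMEL in sequence. In chickens, changes in PMEL lighten black feathers, which makes the gene a classical plumage locus.

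The value labelled black was lower than the value labelled yellow for all 6 genes and for the melanin enzymes TYR, TYRP1 and DCT. It was also lower for 5049 of the 10061 genes that averaged 1 RPKM or more over both stripes. For TYRP1 and DCT, which act in black pigment synthesis, this direction runs against the pigment named in the labels. The 2 values are therefore given under their labels, as black-labelled skin and yellow-labelled skin. The deposited columns and the authors' own ratios use the same stripe names, which is no check of the labels. Whether the stripes were exchanged before deposit was not tested, and every direction given here rests on the labels. The members were chosen by their role in the melanosome and with their RPKM values in both stripes already known. Their values, ratios and the authors' p-values and q-values are therefore given as a description, and nothing is tested with them.

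PMEL, the fibril protein of the melanosome matrix, had 118 RPKM in black-labelled skin and 336 RPKM in yellow-labelled skin. The log2 ratio of black over yellow was -1.51, and the black-labelled level was 35.1% of the yellow-labelled one. PMEL ranked 476 among all genes by level in black-labelled skin and 137 in yellow-labelled skin, so it was among the abundant transcripts of both. Of the 594 genes that averaged 100 RPKM or more over both stripes, 0 had a lower log2 ratio than PMEL. The next lowest ratios at that level belonged to MFAP4, a matrix protein, at -0.49, and SOSTDC1, a secreted BMP and Wnt inhibitor, at -0.47, both picked out after their values were seen. MFAP4 had 84.0 RPKM in black-labelled and 117.9 RPKM in yellow-labelled skin, and SOSTDC1 had 90.5 and 125.5 RPKM. Both thus reached the floor of 100 RPKM only through their yellow-labelled values, whereas PMEL was above it in both stripes. In the authors' deposited table, PMEL was also the 1 gene of these 594 whose q-value was below 0.05. Its difference of -218 RPKM between black-labelled and yellow-labelled skin ranked 3 among all genes by size. The larger differences in RPKM were those of EEF1A1 and RPL21, translation genes whose log2 ratios were both -0.10.

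MLANA, a small membrane protein that in human cells binds PMEL and aids its maturation, had 14.7 RPKM in black-labelled skin and 53.5 RPKM in yellow-labelled skin. Its log2 ratio of -1.86 was the lowest of the 6, and the black-labelled level was 27.6% of the yellow-labelled one. MLANA ranked 5018 among all genes by level in black-labelled skin, where its level was close to the median of 14.7 RPKM over measured genes. In yellow-labelled skin it ranked 1251. Among the 10061 genes that averaged 1 RPKM or more over both stripes, called measured from here on, 5 had a lower log2 ratio than MLANA and 12 had a lower one than PMEL.

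GPNMB, a transmembrane glycoprotein of melanosomes that macrophages and bone cells make as well, had 86.0 RPKM in black-labelled skin and 116 RPKM in yellow-labelled skin. Its log2 ratio was -0.44, and 2.17% of measured genes had a lower one. GPNMB was thus nearly as abundant as PMEL in black-labelled skin, where PMEL stood 1.37-fold above it, and far less so in yellow-labelled skin, where PMEL stood 2.88-fold above it.

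GPR143, the melanosomal receptor whose loss causes ocular albinism in humans, had 6.75 RPKM in black-labelled skin and 8.77 RPKM in yellow-labelled skin. The log2 ratio was -0.38, and 2.76% of measured genes had a lower one. TSPAN10, a tetraspanin also called oculospanin, had 5.17 RPKM in black-labelled skin and 5.64 RPKM in yellow-labelled skin. With a log2 ratio of -0.13 it differed least of the 6, and 16.0% of measured genes had a lower ratio. Both genes were below the median level of measured genes in both stripes.

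CDK2, the cyclin-dependent kinase of S phase entry, had 74.2 RPKM in black-labelled skin and 100.1 RPKM in yellow-labelled skin. Its log2 ratio of -0.43 was close to that of GPNMB, and 2.29% of measured genes had a lower one. The order of levels was the same in both stripes, with PMEL highest, then GPNMB, CDK2, MLANA and GPR143, and TSPAN10 lowest. Without a replicate spread it cannot be said which neighbours in this order differ beyond error.

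**Figure D1:**
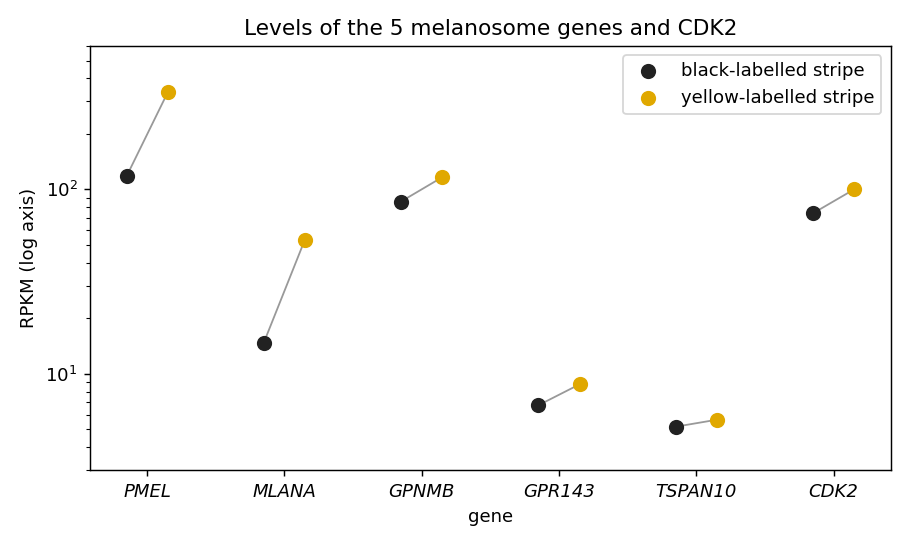
RPKM (log axis) of the 6 genes, with 1 point for the black-labelled value on the left and 1 for the yellow-labelled value on the right of each pair. All 6 black-labelled points are the lower ones, and the steps of PMEL (118 and 336 RPKM) and MLANA (14.7 and 53.5 RPKM) are the steepest.

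In the authors' deposited table, 2 of the 6 genes were lower in black-labelled skin with a q-value below 0.05, PMEL and MLANA, where 0.169% of the 10061 measured genes were. For both genes the authors' deposited table gives p = 5e-05 and q = 0.0177, the lowest values it holds. This lowest p-value was shared by 30 genes, out of 35 with a q-value below 0.05. It thus does not set PMEL and MLANA apart from most of those genes. Besides PMEL and MLANA, GPNMB had p = 0.0247 and CDK2 p = 0.0462 in the authors' deposited table. This makes 4 of the 6 lower in black-labelled skin with an unadjusted p below 0.05 there, where 1.28% of measured genes were. The authors' deposited table gives GPR143 p = 0.11 and TSPAN10 p = 0.699. All 4 genes other than PMEL and MLANA had q = 1 in that table. The median log2 ratio of the 6 genes was -0.43, beside -0.00 over all measured genes, whose ratios had an SD of 0.25.

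**Figure D2:**
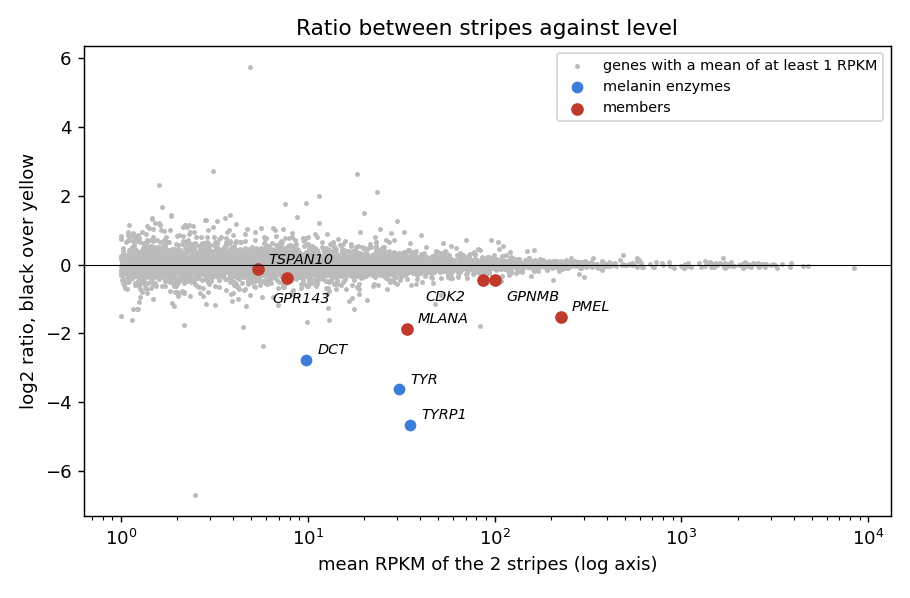
Log2 ratio of black over yellow against the mean RPKM of both stripes (log axis), with measured genes in grey, the 6 members in red and TYR, TYRP1 and DCT in blue. PMEL, at -1.51, lies apart from other genes of its level, MLANA, at -1.86, lies between it and the enzymes, and TSPAN10, at -0.13, lies within the grey band.

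The proportions of the genes to each other differed between the stripes. PMEL made up 51.1% of the summed RPKM of the 5 melanosome genes in black-labelled skin and 64.5% in yellow-labelled skin. For GPNMB the share was 37.3% in black-labelled and 22.4% in yellow-labelled skin, and for MLANA it was 6.40% and 10.3% in the same order. The sum of the 5 was 230 RPKM in black-labelled and 520.0 RPKM in yellow-labelled skin, which is 2.26-fold higher in yellow-labelled skin, and 1.64-fold higher when PMEL is left out. The proportion of PMEL to MLANA differed less, with 7.98 times as much PMEL as MLANA in black-labelled skin and 6.27 times as much in yellow-labelled skin. GPNMB, GPR143 and CDK2 stood in nearly the same proportion in both stripes. GPNMB stood 12.7-fold above GPR143 in black-labelled and 13.3-fold above it in yellow-labelled skin, and CDK2 had 0.863 and 0.859 of the level of GPNMB in the same order.

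Set against the enzymes that make melanin, the structural genes differed less between the stripes. TYR, the rate-limiting enzyme, TYRP1, which acts late in black pigment synthesis, and DCT, which acts between them, summed to 9.93 RPKM in black-labelled and 143 RPKM in yellow-labelled skin, a 14.4-fold ratio. PMEL was 43.4 times as abundant as TYRP1 in black-labelled skin and 4.92 times as abundant in yellow-labelled skin. For MLANA over TYRP1 the values were 5.44 in black-labelled and 0.784 in yellow-labelled skin, so their order was turned round. In black-labelled skin PMEL thus reached 118 RPKM where TYRP1 had 2.71 RPKM and TYR 4.68 RPKM. Relative to SOX10, a transcription factor of the pigment cell lineage, PMEL stood 5.25-fold above in black-labelled and 13.3-fold above in yellow-labelled skin. The same comparison for GPNMB gave 3.84-fold and 4.62-fold, and for GPR143 a level of 0.302 and 0.348 of that of SOX10. These proportions depend on the gene they are set against. Relative to KIT, a receptor of pigment cell precursors, PMEL stood 3.82-fold above in black-labelled and 14.2-fold above in yellow-labelled skin, GPNMB stood 2.79-fold and 4.94-fold above, and GPR143 had 0.219 and 0.372 of the level of KIT.

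The wider list of melanin enzymes and melanosome transporters and motors had 19 measured of 20 members and a median log2 ratio of -0.11. By the authors' deposited q-values, 3 of them were lower in black-labelled skin and 1 was higher at a threshold of 0.05, where 0.169% of measured genes were lower and 0.179% were higher. The 1 higher member was MFSD12, a transporter of lysosomes and melanosomes, with 18.4 RPKM in black-labelled and 4.64 RPKM in yellow-labelled skin. At an unadjusted p below 0.05 in the authors' deposited table, 6 were lower and 1 was higher, where 1.28% of measured genes were lower and 1.91% were higher. Those beyond the 3 enzymes were the ion transporters SLC24A5, SLC24A4 and OCA2. SLC24A5, a melanosomal cation exchanger, had 10.2 RPKM in black-labelled and 25.1 RPKM in yellow-labelled skin. SLC24A4 had 1.41 and 2.65 RPKM, and OCA2 had 0.53 and 1.48 RPKM in the same order. OCA2 counted as measured only through its yellow-labelled value. In the authors' deposited table the q-values of SLC24A5, SLC24A4 and OCA2 were 0.946, 0.259 and 0.15. QDPR, a pterin enzyme and 1 of the 3 most abundant members by mean RPKM with TYR and TYRP1, had 52.8 and 53.4 RPKM. TYR and TYRP1 were among those 3 only through their yellow-labelled values of 57.3 and 68.2 RPKM, beside 4.68 and 2.71 RPKM in black-labelled skin.

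The skin held transcripts of the cell types that the dissection would contain. Dermal fibroblast markers summed to 2168 RPKM in black-labelled and 2089 RPKM in yellow-labelled skin over 8 of 8 genes. Keratinocyte markers summed to 259 and 303 RPKM over 4 of 9 genes, all 4 lower in black-labelled skin. Melanocyte markers summed to 87.1 RPKM in black-labelled and 219 RPKM in yellow-labelled skin over 7 of 8 genes, and none of the 7 was listed at 0. EDNRB2, the listed marker without a match by name, is not in these sums, while EDNRB is. Without the 3 enzymes, the remaining 4 (KIT, MITF, SOX10 and EDNRB) summed to 77.2 RPKM in black-labelled and 76.7 RPKM in yellow-labelled skin. Their near-equal sums hold members on both sides of 0. KIT had 30.8 RPKM in black-labelled and 23.6 RPKM in yellow-labelled skin, a log2 ratio of 0.39, and EDNRB had 2.14 and 1.96 RPKM, while the log2 ratios of MITF and SOX10 were -0.25 and -0.17. In bulk tissue, fewer pigment cells and less RNA of a gene per cell cannot be told apart, and the part of these markers in the differences of PMEL and MLANA was not tested. Of 4 markers of retinal pigment epithelium, which also makes PMEL, GPR143 and TSPAN10, 0 reached a mean of 1 RPKM.

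Each gene was then set beside a list of genes linked to it by function, family, regulation or cell type, so the lists are not limited to direct partners. At an unadjusted p below 0.05 in the authors' deposited table, 1.28% of measured genes were lower in black-labelled skin and 1.91% were higher. At q below 0.05 the shares were 0.169% and 0.179%. Beside such shares, a count of 0 or 1 in a list of this size says little about the listed genes. The list for PMEL holds the proteases, sorting receptors and lysosomal proteins that take part in its cleavage and fibril formation or in related steps. It had 15 measured of 20 members and a median log2 ratio of 0.03, and the authors' deposited table has 0 of them at q under 0.05. The ratio of PMEL lay below that of all 15, but only 0.119% of all measured genes had a lower one, so this says little about the list. The lowest of them was BACE2, a protease that in mice releases the fibril-forming fragment of PMEL, with 19.7 RPKM in black-labelled and 24.5 RPKM in yellow-labelled skin. CTSL, a lysosomal protease, was the 1 member at an unadjusted p below 0.05, by the authors' deposited table (p = 0.0064, q = 0.503), and it ran the other way, with 131 RPKM in black-labelled and 90.2 RPKM in yellow-labelled skin. CTSD, another lysosomal protease, had 126 and 130 RPKM and CTSB 104 and 113 RPKM in the same order. The proprotein convertase FURIN had 12.1 and 10.9 RPKM, and ADAM10, a sheddase of membrane proteins, had 33.2 and 33.9 RPKM.

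The list set beside MLANA holds transcription factors of pigment cells and of lysosome genes, some of which drive melanosome genes. Of 14 members 10 were measured, with a median log2 ratio of 0.16, and the authors' deposited table has 0 of them at an unadjusted p below 0.05. The ratio of MLANA, -1.86, lay below that of all 10, but only 0.0497% of all measured genes had a lower one, so this says little about the list. The part of these factors in the difference of MLANA was not tested. MITF, the master regulator of melanocytes, had the lowest ratio of the 10, -0.25, with 21.9 RPKM in black-labelled and 26.0 RPKM in yellow-labelled skin. SOX10 had 22.4 and 25.2 RPKM in the same order. The 3 most abundant members lay on the other side of 0, and values of bulk skin do not show which cells made their transcripts. LEF1, a Wnt effector, had 143 RPKM in black-labelled and 127 RPKM in yellow-labelled skin, ZEB2 had 118 and 110 RPKM, and TFAP2A had 55.9 and 53.3 RPKM.

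GPNMB is also made by phagocytes, so its list holds macrophage, osteoclast and lysosome genes. Of 23 members 12 were measured, with a median log2 ratio of 0.07, and the authors' deposited table has 0 of them at an unadjusted p below 0.05. The ratio of GPNMB lay below all 12, but only 2.17% of all measured genes had a lower one, so this says little about the list. LGMN, a lysosomal protease and the most abundant of them, had 56.8 RPKM in black-labelled and 56.1 RPKM in yellow-labelled skin. The macrophage markers summed to 29.9 RPKM in black-labelled and 26.2 RPKM in yellow-labelled skin over 9 of 10 genes, none listed at 0, with 1 of the 6 measured ones lower in black-labelled skin. Their receptor CSF1R had 5.82 and 5.23 RPKM. The part of macrophages in the difference of GPNMB was not tested.

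GPR143 signals through G proteins, and in mice its effect on melanosomes depends on the alpha subunit GNAI3. Of 19 signalling genes 13 were measured, with a median log2 ratio of 0.00. RGS2, which speeds the shut-off of G proteins, was the 1 member at an unadjusted p below 0.05, by the authors' deposited table (p = 0.0291, q = 1), with 33.9 RPKM in black-labelled and 47.6 RPKM in yellow-labelled skin. Its ratio of -0.49 was the 1 below that of GPR143. GNAI3 had 107 RPKM in black-labelled and 110 RPKM in yellow-labelled skin, GNAI2 82.4 and 80.7 RPKM, and the beta subunit GNB1 185 and 182 RPKM.

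TSPAN10 belongs to the tetraspanins with 8 cysteines in the large loop, several of which carry the protease ADAM10. Of 25 tetraspanins other than TSPAN10, 17 were measured, with a median log2 ratio of 0.06, and the authors' deposited table has 0 of them at an unadjusted p below 0.05. The ratio of TSPAN10 lay inside their range of -0.29 to 0.25, with 4 of them lower. Its measured relatives of the same class were TSPAN14, with 20.1 RPKM in black-labelled and 19.2 RPKM in yellow-labelled skin, TSPAN5, with 6.02 and 7.07 RPKM, and TSPAN15, with 4.22 and 3.66 RPKM. The most abundant members of the list were TSPAN3 with 157 and 149 RPKM, CD81 with 133 and 149 RPKM, and TSPAN6 with 63.1 and 59.4 RPKM in the same order.

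CDK2 was set beside its cyclins, inhibitors and other cell cycle genes. Of 37 members 32 were measured, with a median log2 ratio of 0.02, and the authors' deposited table has 0 of them at an unadjusted p below 0.05. The ratio of CDK2 lay below that of all 32, the lowest of which was -0.22 for CCND2, a cyclin of early G1. Only 2.29% of all measured genes had a lower ratio than CDK2, so this says little about the list. Of the cyclins that bind CDK2, CCNE1 had 6.64 RPKM in black-labelled and 6.42 RPKM in yellow-labelled skin, CCNE2 had 7.56 and 7.58 RPKM, and CCNA2, with a log2 ratio of 0.21, had 33.1 and 28.6 RPKM. CDK1, the kinase of mitosis, had 164 RPKM in black-labelled and 143 RPKM in yellow-labelled skin, PCNA, the clamp of DNA replication, 145 and 146 RPKM, and CCNB2 95.3 and 89.8 RPKM.

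**Figure D3:**
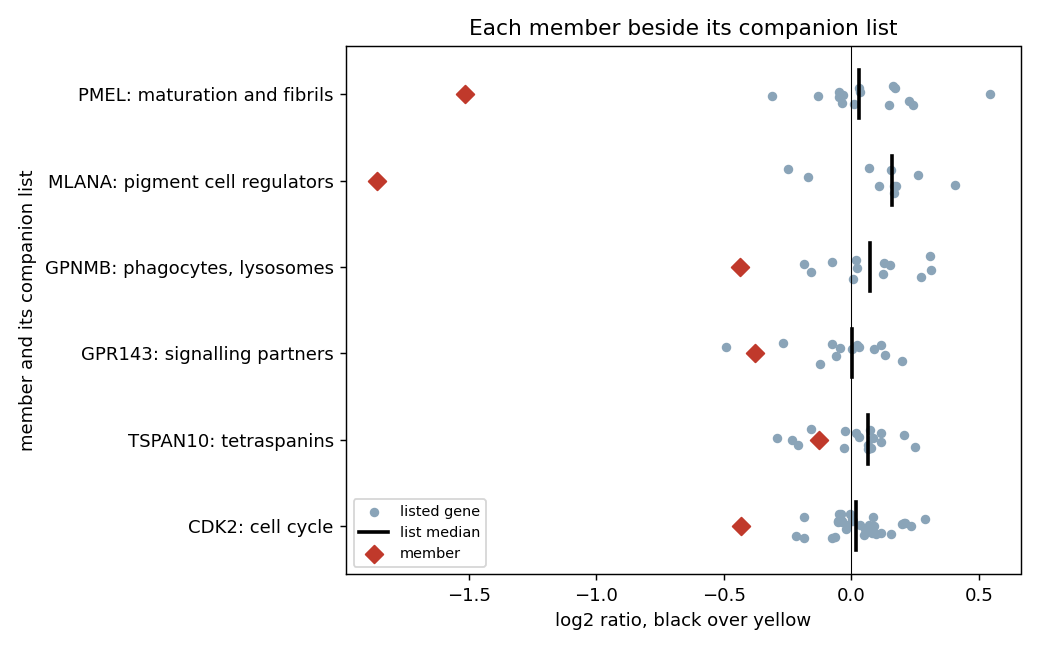
Log2 ratio of black over yellow of each member (red diamond) and of the measured genes of its list (points, shifted vertically at random within a row), with the list median as a black bar. The diamonds of PMEL, MLANA, GPNMB and CDK2 lie left of all points of their lists, GPR143 has 1 point to its left, and TSPAN10 has 4. Of all measured genes, 0.119%, 0.0497%, 2.17% and 2.29% had a lower ratio than PMEL, MLANA, GPNMB and CDK2, so most genes would lie to their right.

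The genes beside each member in the RefSeq annotation of Coturnix japonica 2.1 were compared as well, because no source used here says whether reads were counted by strand. PMEL lies between DGKA, a diacylglycerol kinase, and CDK2. DGKA had 3.93 RPKM in black-labelled and 4.61 RPKM in yellow-labelled skin, a log2 ratio of -0.23. RAB5B, an endosomal GTPase on the far side of CDK2, had 35.4 and 37.6 RPKM, a log2 ratio of -0.09. CDK2 thus had a lower ratio than the next gene out, and its difference of -25.9 RPKM stood beside one of -218 RPKM for PMEL. Without strand, reads from PMEL and CDK2 cannot be told apart where the 2 transcripts would overlap, and whether PMEL reads were counted for CDK2 was not tested.

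The log2 ratios of the neighbours of the other members ran from -0.10 for KIAA2026 to 0.20 for TBL1X. KIAA2026, next to MLANA, had 10.1 RPKM in black-labelled and 10.8 RPKM in yellow-labelled skin. MALSU1, a mitochondrial ribosome assembly factor next to GPNMB, had 51.0 and 53.0 RPKM in the same order. TBL1X, a corepressor subunit next to GPR143, was on the other side of 0, with 40.5 RPKM in black-labelled and 35.3 RPKM in yellow-labelled skin. TSPAN10 lies between NPLOC4, with 34.9 and 33.7 RPKM, and PDE6G, a photoreceptor gene with 0.21 and 0.215 RPKM. All of these neighbours had q = 1 in the authors' deposited table, but PDE6G lay below 1 RPKM and did not count as measured. A further 3 neighbours, a protein-coding gene beside MLANA and long non-coding RNAs beside GPNMB and GPR143, were not analysed here.

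**Figure D4:**
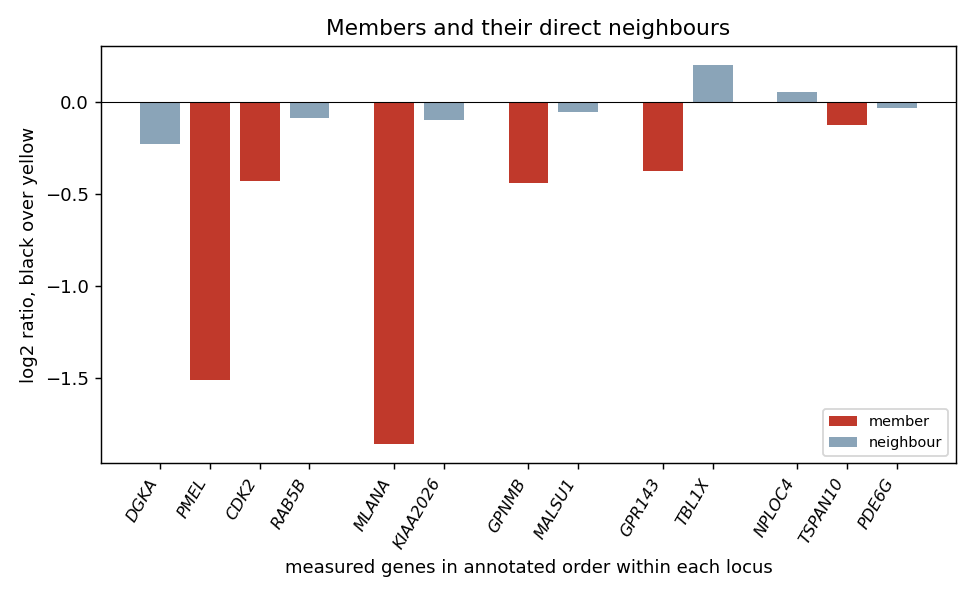
Log2 ratio of black over yellow of each member (red) and of its direct neighbours that were analysed (blue-grey), in annotated order within each locus. PDE6G, with 0.21 RPKM in black-labelled and 0.215 RPKM in yellow-labelled skin, is shown although it did not reach a mean of 1 RPKM. PMEL (-1.51) and MLANA (-1.86) have the longest bars, CDK2 (-0.43) lies between PMEL and RAB5B (-0.09), and TBL1X and NPLOC4 have bars above 0.

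Among 6085 named genes averaging 10 RPKM or more, those with the ratio nearest to that of each member were listed. Likeness here is the distance between log2 ratios of just 2 values. PMEL was nearest to MGP, an inhibitor of calcification (-1.61), SLC24A5 (-1.29) and HOXB4, a position gene (-1.26). In the authors' deposited table the q-values of these genes were 0.0177, 0.946 and 0.566 in the same order. MGP and HOXB4 reached the floor of 10 RPKM only through their yellow-labelled values, as did VAT1L, named below for GPNMB. MLANA was nearest to HPGDS, a prostaglandin D synthase (-1.77), MGP and PMEL. HPGDS had 38.1 RPKM in black-labelled and 130 RPKM in yellow-labelled skin, and MGP had 6.46 and 19.7 RPKM. The nearest genes to the other 4 members lay within 0.01 of them, as many genes have such ratios. They were MYLK, VAT1L and SLC6A15 for GPNMB, GATA3, HEY2 and PDLIM1 for GPR143, RMI2, SCP2 and AHR for TSPAN10, and ADGRG1, GEM and LTBP1 for CDK2.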

How the data were processed

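RNA was extracted with Trizol from dissected skin and an Illumina TruSeq kit was used for the libraries, per the labels. TopHat2 2.1.1 and Cufflinks 2.2 are named in the submitters' processing notes; genome build, annotation, strandedness and how the libraries of a stripe were merged, or entered the p-values, are not given in the sources used. The authors deposited RPKM values, 1 per stripe. The log2 ratios, p-values and q-values are the authors' too, per the file headers. A deposited column of another kind marks 366 genes, which are those with p under 0.05.

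Of 12419 rows, 11 with IDs turned into dates and 25 with repeated transfer RNA IDs were left out, leaving 12383 genes, of which 11844 match a RefSeq symbol of Coturnix japonica 2.1. That assembly served for names and neighbours; its coordinates are left out, since the values' build is unknown. The log2 ratio of black over yellow was taken without a pseudocount and lay within 0.01 of the authors' for the 6 members. A gene counted as measured where the mean of both stripes was 1 RPKM or more. No test was run on 1 value per stripe, so calls are the authors' q-values under 0.05. No replicate check was possible. The members and lists were chosen with earlier results of these data known. The text names all members, list genes past q or p of 0.05, the 3 most abundant genes of each list, direct neighbours and the 3 nearest ratios, except a few that are not reported here; BACE2, FURIN, ADAM10, MITF, SOX10, TSPAN5, TSPAN14, TSPAN15, CCND2, CCNE1, CCNE2, CCNA2, RPL21, EDNRB and CSF1R were added after their values were seen. Alternatives were other pseudocounts, scalings, thresholds and floors. The p-value adjustment was compared with a library routine on simulated data. The ratio check on those data could not fail, because it recomputed the ratios the data were built from. Python 3.11.15, pandas 2.3.3, numpy 2.4.6 and matplotlib 3.10.9 were used.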

Additional observations from a re-analysis of the deposited data

How the results depend on the processing

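The count of members past the authors' q-value threshold was 2 (PMEL and MLANA) and stayed 2 at q under 0.1, with a ratio of at least 2-fold, and with p-values adjusted again over genes of at least 1 or 5 RPKM. At q under 0.01 it was 0, since the lowest q in the authors' deposited table is 0.0177, and at an unadjusted p under 0.05 it was 4, adding GPNMB and CDK2. The ratios of the 6 genes kept their direction and moved by less than 1.5-fold in all 36 recomputations with pseudocounts of 0.1 and 1 RPKM, 3 scalings and the authors' own ratios. Pseudocounts never change a ratio's direction, and the scalings shifted ratios by -0.00 (median), 0.01 (upper quartile) and -0.02 (housekeeping genes) on the log2 scale, so this says little about stability. The medians of the 8 lists moved by at most 0.1 in 24 recomputations with floors of 0.1 and 5 RPKM and a pseudocount of 1 RPKM. That limit is larger than most of the medians themselves, so it says little about their stability. The median of the tetraspanins, for example, went from 0.06 to 0.03 at the floor of 0.1 RPKM. The housekeeping list, with EEF1A1 and RPLP0 as its most abundant genes, had a median of -0.02 over 18 measured members. Leaving out libraries was not run, because values per library were not used here. No paired analysis was possible because the deposited columns hold 1 value per stripe and carry no replicate number. The planned search for promoter motifs and the comparison of protein sequences were not run.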
